A study of Drosophila melanogaster with 11 samples.

Results

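The nuclear transfer RNA (tRNA) genes of Drosophila Kc167 cells are described here from newly synthesized RNA. The members were chosen by their FlyBase symbol, which begins with tRNA:, and no threshold on a measured value was applied. They numbered 295 of the 17771 genes in the count table, and 129 of the 295 had at least 1 count in the libraries used. The gene class itself was picked from this series with earlier results of these data known, so the counts of calls are given as descriptions.

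Kc167 is a female embryonic Drosophila line of hemocyte type, and the study asked how depletion of the transcription factor M1BP or of the insulator proteins CP190 and Mod(mdg4)67.2 alters transcription. Cells were electroporated with double-stranded RNA (dsRNA) to M1BP (20 µg), to Cp190 (12 µg) or to the isoform Mod(mdg4)67.2 (5 µg), while mock cells received no RNA. After 5 days all cells were labeled for 1 h with 5-ethynyl uridine (EU, 0.2 mM), which is built into new RNA in place of uridine and allows its capture. Of 11 labelled libraries, 9 could be assigned to a column of the table, which were M1BP knockdown replicates 2 and 3, the library labelled Cp190 knockdown replicate 1, mod(mdg4) knockdown replicates 1 and 2, and mock replicates 1 to 4. The study calls its RNA-seq replicates biological, but no label ties them to separate cultures, so p-values measure only the spread between these libraries.

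tRNAs carry amino acids to the ribosome, and their anticodon pairs with the codon of the messenger RNA. Their genes are transcribed by RNA polymerase III (Pol III) from a promoter inside the gene, which TFIIIC recognizes and where TFIIIB recruits the polymerase. The precursor is trimmed by RNase P and RNase Z, spliced where the gene holds an intron, modified and exported. Many tRNA genes are identical copies of each other, and insulator proteins are known to bind near tRNA genes in several species.

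Total counts lay between 7462623 and 13181160 in the 5 knockdown libraries and between 24944604 and 29680851 in the 4 mock libraries, so every knockdown library was shallower than every mock library. M1BP itself was at 21.4 and 31.4 counts per 1000000 (CPM, after edgeR's TMM scaling) after M1BP knockdown, against 44.3, 45.4, 54.8 and 54.2 CPM in mock cells (log2 fold change -0.86 ± 0.20 SE, adjusted p = 0.0145 by edgeR). The Cp190 gene was at 4379 CPM in the library labelled Cp190 knockdown, above the 340.5 to 462.3 CPM of mock cells. Whether reads from the added dsRNA or a label error contributed was not tested, so the library is named by its label. The mod(mdg4) gene was not analysed here. Of 10 hemocyte markers, srp, which encodes a blood-cell GATA factor, reached 1809 to 4144 CPM in knockdown and 3472 to 5673 CPM in mock libraries, while He, NimC1 and eater stayed below 3 CPM in all 9 libraries. Among 8 markers of other cell types, elav, a marker of neurons, was at 77.2 to 174.8 CPM in knockdown and 76.6 to 128.6 CPM in mock libraries. Mef2, a marker of muscle, was at 118.8 to 205.3 CPM in knockdown and 170.2 to 210.9 CPM in mock libraries. The fat body gene Lsp1alpha was at 0 in every knockdown library and in all mock libraries but replicate 1. After M1BP knockdown 3 of 10 tested hemocyte markers were called higher, beside 16.5% of all genes, and 2 lower, beside 11.5%. Those called higher were Pxn, Hml and Ppn. Pxn was at 598.6 and 921.0 CPM, against 217.6 to 298.3 CPM in mock cells. vkg and Col4a1 were called lower, with vkg at 18.4 and 18.2 CPM, against 30.8 to 51.7 CPM in mock cells. Of 7 tested markers of other cell types, Mhc was called higher and nanos lower. Neither list held a call in the mod(mdg4) comparison (0 markers), beside 0.32% of all genes called higher and 0.408% lower.

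Reads on tRNA genes were rare. All 295 genes together held 4946 counts over the 9 libraries, 1939 of them in mock cells. At least 3 counts were found for 88 genes and at least 10 for 51. Only 2 genes had counts in all 9 libraries, 19 had counts in all 4 mock libraries, and 55 had counts in a single library. The genes were 71 to 186 bases long with a median of 73, in 22 classes by the amino acid in the symbol (initiator methionine, iMet, and selenocysteine, SeC, counted apart) and with 44 anticodons.

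The genes at 0 fell into kinds that differ in how reads could be counted. Another gene on the same strand overlapped 61 of the 295, and all 61 were at 0. The authors' counting left out reads that overlap 2 genes on 1 strand, so these 61 could not receive a count where the other gene covered them. The genes around them included EcR, the ecdysone receptor, with 6 tRNA genes, and CheB42c and mim with 4 each. Of the other 234 genes, 129 (55.1%) had counts. An overlap on the opposite strand made little difference, with 45 of 77 such genes (58.4%) counted, against 84 of 157 genes without any overlap (53.5%).

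**Figure D1:**
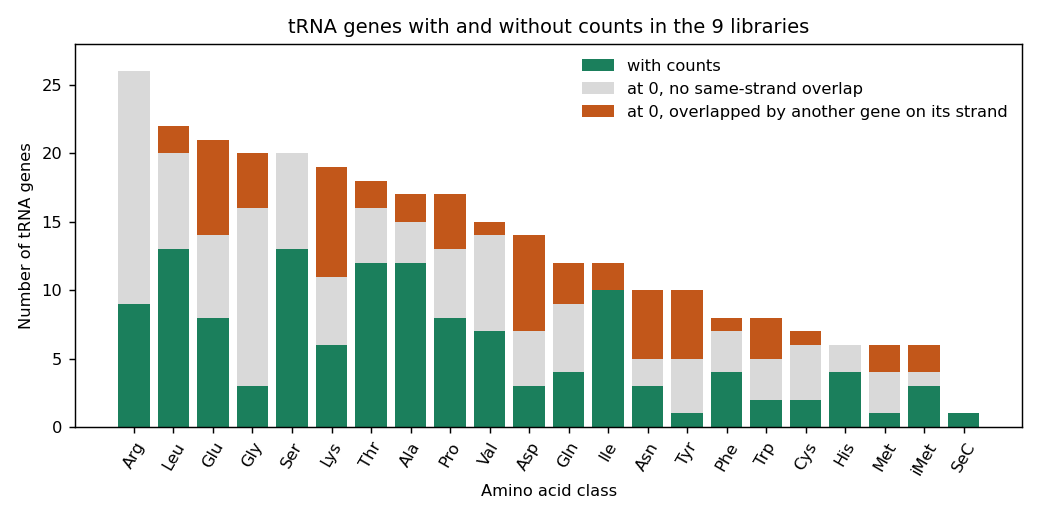
Number of nuclear tRNA genes (vertical axis) in each of 22 amino acid classes (horizontal axis), split into genes with counts in the 9 libraries, genes at 0 with no same-strand overlap and genes at 0 that another gene overlaps on the same strand. Ile had counts for 10 of 12 genes, against 3 of 20 for Gly.

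The genes were also grouped by copy number. FlyBase gives genes with the same mature sequence the same first number in the symbol, and the 295 genes form 89 such groups. Among genes with no same-strand overlap, 34 are the only gene of their group, and 19 of these (55.9%) had counts, close to 110 of the 200 genes with at least 1 copy (55.0%). The 34 single genes took 3081 counts (62.3% of all tRNA counts), against 1865 (37.7%) for the 200 copied genes. Only 2 of the single genes, SeC-TCA-1-1 and His-GTG-2-1Psi, held 2310 of the 3081, and the other 32 held 771 (15.6%). The 105 genes of groups with at least 6 members took 625 counts (12.6%). A read that matches several copies equally is dropped by the authors' counting, and low transcription of a copied gene cannot be told apart from lost reads here.

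Position and structure varied widely too. Chromosome arm 2R held 100 of the genes, 54 of them with counts, and 65.0% of all tRNA counts. Arm 2L held 41 genes, of which 9 had counts, with 1.52% of the counts. The reference annotation gives 16 of the genes 2 exons, that is an intron, and 6 of these had counts, 525 in all. Both Ile-TAT genes (253 counts) and 3 of 4 Leu-CAA genes (245 counts) were among them, but only 1 of 10 Tyr-GTA genes (27 counts), 5 of which another gene overlaps on the same strand. Of the 10 genes with an intron and no such overlap, 6 had counts. Of 5 annotated pseudogenes 2 had counts.

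A few genes held most of the reads. The SeC-TCA-1-1 gene, whose tRNA brings selenocysteine into selenoproteins, and the pseudogene His-GTG-2-1Psi together took 46.7% of all tRNA counts and 39.5% of those in mock cells, and the 5 genes with most counts took 65.2% and 71.0%. By class over all 9 libraries, SeC held 1526 counts, His 832, Pro 832, Leu 374 and Ile 365, but 983 of the SeC counts and 374 of the His counts came from mod(mdg4) knockdown replicate 2. In mock cells Pro led with 536 counts (27.6%), ahead of SeC with 418 (21.6%) and His with 358 (18.5%). At the low end, over all libraries, Gln held 5 counts over 12 genes and Met 4 counts over 6 genes. These are sums of reads and were not divided by gene length.

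Summed over all 295 genes, nuclear tRNA was at 28.7 and 9.17 CPM after M1BP knockdown, at 21.1 CPM in the library labelled Cp190 knockdown, at 17.8 and 248.5 CPM after mod(mdg4) knockdown and at 19.0, 19.6, 16.1 and 17.8 CPM in mock cells. The mock libraries lay close together, while 1 of the 5 knockdown libraries, mod(mdg4) replicate 2, stood far above all others. Exact 95% binomial intervals, which cover counting error only, ran from 238.1 to 259.3 CPM in mod(mdg4) replicate 2 and from 14.6 to 21.3 CPM over the mock libraries. M1BP replicate 2 (25.8 to 31.9 CPM) lay above and M1BP replicate 3 (7.46 to 11.2 CPM) below all mock intervals. However, the intervals take each read as an independent draw, which was not tested. The median count of a tRNA gene not at 0 was 9 and 7 in these M1BP libraries, against 1.5 to 3 in mock cells. If reads come in groups, the intervals are too narrow. In bulk RNA, fewer cells that make a transcript and less of it per cell cannot be told apart.

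**Figure D2:**
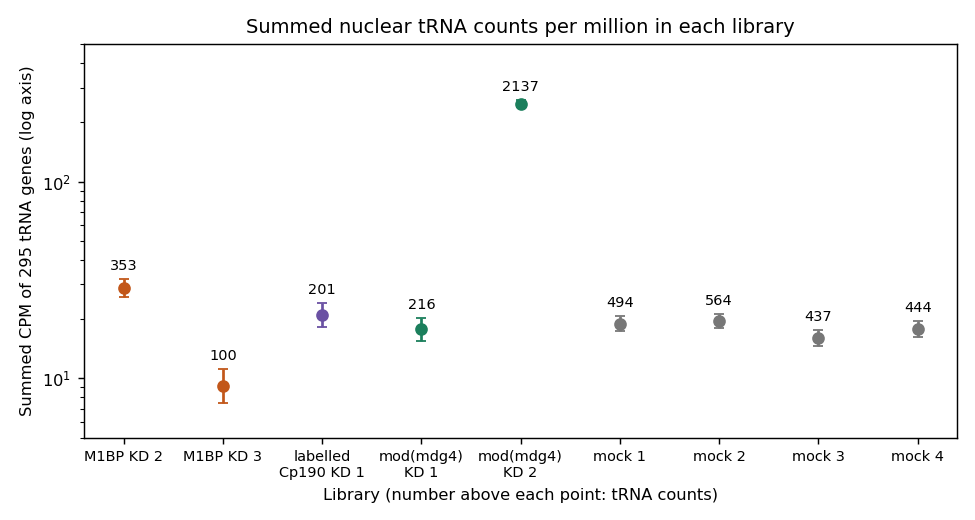
Summed CPM of the 295 nuclear tRNA genes (log axis) in each library, with exact 95% binomial intervals as bars and the number of tRNA counts above each point. The mod(mdg4) knockdown replicate 2 sits at 248.5 CPM, above the mock libraries at 16.1 to 19.6 CPM, while mod(mdg4) knockdown replicate 1 sits at 17.8 CPM.

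The group means were 18.9 ± 13.8 CPM after M1BP knockdown (SD, n = 2) and 18.1 ± 1.53 CPM in mock cells (SD, n = 4). The mod(mdg4) knockdown had a mean of 133.1 ± 163.2 CPM (SD, n = 2), again beside 18.1 CPM in mock cells. As log2 ratios of these means, the M1BP knockdown differed from mock by 0.06, with -0.98 without its replicate 2 and 0.67 without its replicate 3. The mod(mdg4) knockdown differed by 2.88, with 3.78 without its replicate 1 and -0.029 without its replicate 2. The library labelled Cp190 knockdown differed by 0.22, with no replicate to check it. It lay above the highest mock library, but its interval (18.3 to 24.2 CPM) overlapped with those of mock cells.

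By amino acid, mod(mdg4) replicate 2 was the highest of the 9 libraries in 18 of 22 classes. For SeC it was at 114.3 CPM and mod(mdg4) replicate 1 at 3.45 CPM, against 2.15 to 6.56 CPM in mock cells. Its His genes were at 43.5 CPM beside 3.54 CPM in replicate 1, against 2.17 to 5.19 CPM in mock cells. The other knockdown libraries were at 0 in many classes, with 14 of 22 at 0 in M1BP replicate 3, 10 in M1BP replicate 2, 12 in the library labelled Cp190 knockdown and 12 in mod(mdg4) replicate 1, while 3 were at 0 in mod(mdg4) replicate 2 and 2 or 3 in each mock library. These libraries are shallower than the mock libraries, where 3 counts correspond to 0.104 to 0.120 CPM, against 0.244 to 0.349 CPM in the knockdown libraries.

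The distribution of low counts also differed between mock and knockdown libraries, for all genes and for tRNA genes. Among genes with 1 to 20 counts, those with exactly 1 count made up 6.57% and 8.14% after M1BP knockdown, 17.9% in the library labelled Cp190 knockdown, 8.4% and 6.6% after mod(mdg4) knockdown and 19.7% to 25.7% in mock cells. tRNA genes at exactly 1 count numbered 3 and 1 after M1BP knockdown, 2 in the library labelled Cp190 knockdown, 1 and 5 after mod(mdg4) knockdown and 19, 32, 15 and 15 in mock cells. The median count of a tRNA gene that was not at 0 was 9, 7, 13, 5 and 11 in the knockdown libraries in this order, but 2, 1.5, 3 and 3 in mock cells. Of the 129 tRNA genes with counts, 24 (18.6%) had none in any mock library, beside 4.52% of all genes with counts. The part of this in the differences between libraries was not tested.

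**Figure D3:**
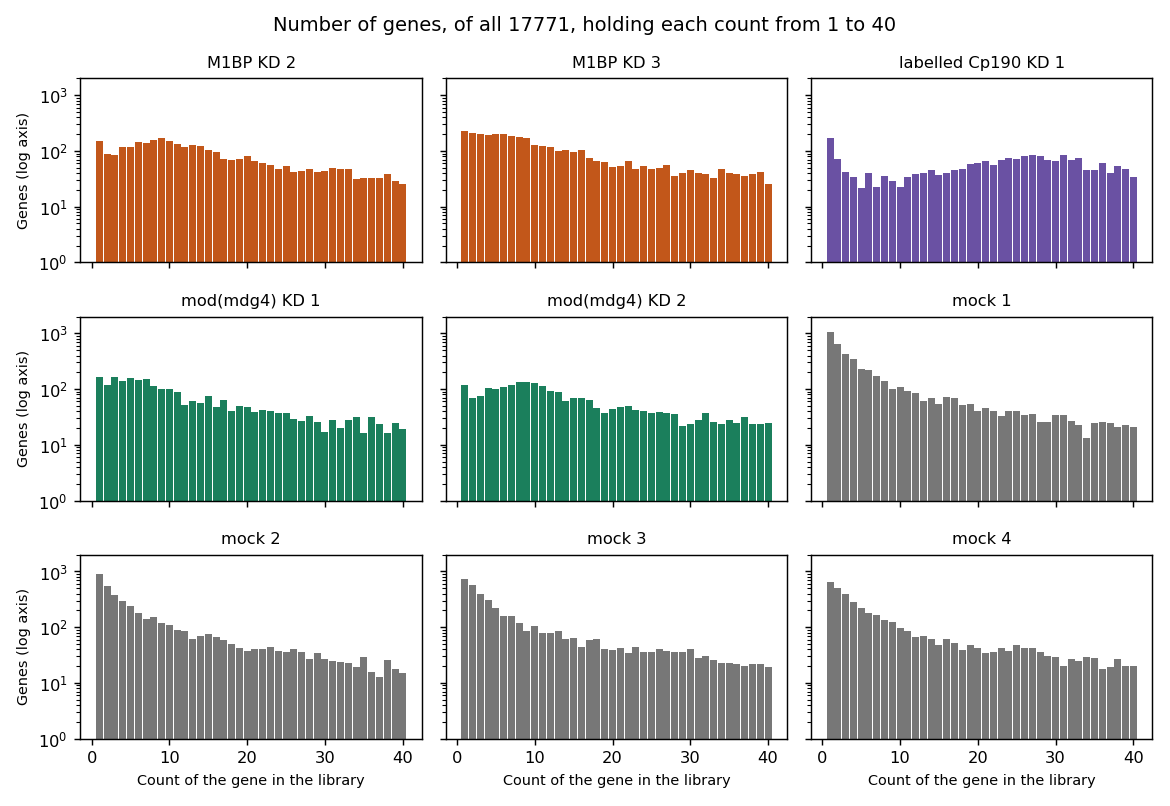
Number of genes (log axis), of all 17771, that hold each count from 1 to 40 in each library, 1 panel per library. In the mock panels a count of 1 is the most frequent, with 659 to 1054 genes, against 117 to 227 genes in the knockdown panels. Further peaks lie near 9 counts in M1BP knockdown replicate 2 (169 genes) and near 8 in mod(mdg4) knockdown replicate 2 (135 genes). The library labelled Cp190 knockdown has a further peak near 27 counts (86 genes).

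The 10 tRNA genes with the highest mean mock level led the comparison by gene. Their lengths were 72 to 127 bases, and levels are CPM not divided by length. SeC-TCA-1-1 (FBgn0011987, dm6, chromosome 2R, 11357564 to 11357650, minus strand, no overlapping gene) had 47 and 11 counts after M1BP knockdown, 25 in the library labelled Cp190 knockdown, 42 and 983 after mod(mdg4) knockdown and 56, 189, 70 and 103 in mock cells. The mod(mdg4) replicate 2 was the highest library, at 114.3 CPM, and M1BP replicate 3 the lowest, at 1.01 CPM, against 2.15 to 6.56 CPM in mock cells. The next gene upstream on the same strand, CG12384, lies 251 bases away and was at 8.39 and 21.5 CPM after mod(mdg4) knockdown, against 16.6 to 30.6 CPM in mock cells, so it did not share the high value.

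His-GTG-2-1Psi (FBgn0011877, 2R, 12336733 to 12336804, plus strand), annotated as a pseudogene, had 25 and 15 counts after M1BP knockdown, 17 in the library labelled Cp190 knockdown, 37 and 342 after mod(mdg4) knockdown and 134, 90, 53 and 71 in mock cells. Replicate 2 of mod(mdg4) knockdown was again the highest, at 39.8 CPM against 1.95 to 5.15 CPM in mock cells. Its neighbour His-GTG-1-4, 243 bases upstream and 1 of 5 identical His genes, was at 0 in all 9 libraries.

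Pro-TGG-1-5 (FBgn0051228, 3R, 18628467 to 18628538, minus strand) lies on the strand opposite to qin. It had 68 and 25 counts after M1BP knockdown, 0 in the library labelled Cp190 knockdown, 31 and 49 after mod(mdg4) knockdown and a narrow range of 67, 68, 61 and 64 in mock cells. With 3 counts as the floor, the 0 counts would put the library labelled Cp190 knockdown at least 7.73-fold lower than mock cells. This is a comparison of that library only and takes reads as independent. Low counts there had a second peak near 27 counts, so the bound may not hold. The other 4 identical Pro-TGG genes held 2 counts between them.

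Pro-CGG-1-1 (FBgn0052826, X, 20025099 to 20025170, plus strand) lies opposite to Dop2R, a dopamine receptor gene, and is the only gene with its mature sequence. It had 18 and 17 counts after M1BP knockdown, 1 in the library labelled Cp190 knockdown, 0 and 0 after mod(mdg4) knockdown and 69, 57, 62 and 54 in mock cells. All 5 knockdown libraries were below all 4 mock libraries. With 3 counts as the floor over both libraries, the mod(mdg4) knockdown would be at least 15.7-fold lower than mock. The library labelled Cp190 knockdown had a ratio of 0.0463 to mock with a counting interval of 0.00117 to 0.261. Both values take reads as independent. Low counts peaked near 4 and 9 in the mod(mdg4) libraries and near 27 in the library labelled Cp190 knockdown, so neither limit may hold.

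The 6 other genes of this group were lower in level. Leu-CAA-1-1, which holds an intron and lies opposite to ATP8A, had 20 and 0 counts after M1BP knockdown, 0 in the library labelled Cp190 knockdown, 21 and 52 after mod(mdg4) knockdown and 22, 27, 32 and 28 in mock cells. Ile-TAT-1-2, also with an intron, had 8 and 0, 0, 6 and 94 counts in these knockdown libraries, against 7, 6, 13 and 9 in mock cells. Ile-TAT-1-1, 762 bases away and with the same mature sequence, is 98 bases long, against 100 for Ile-TAT-1-2. It was also highest in mod(mdg4) replicate 2, with 0 and 5, 0, 5 and 77 counts in the knockdown libraries. Its mock counts were 3, 5, 6 and 9, but the M1BP libraries took the opposite order. Ile-AAT-1-2 was at 0 in all 5 knockdown libraries, against 12, 5, 8 and 11 counts in mock cells. Trp-CCA-2-4, Ile-AAT-1-1 and Thr-AGT-1-6 were at 0 in every knockdown library but mod(mdg4) replicate 2, where they had 11, 11 and 40 counts, while their mock counts ran from 3 to 15.

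**Figure D4:**
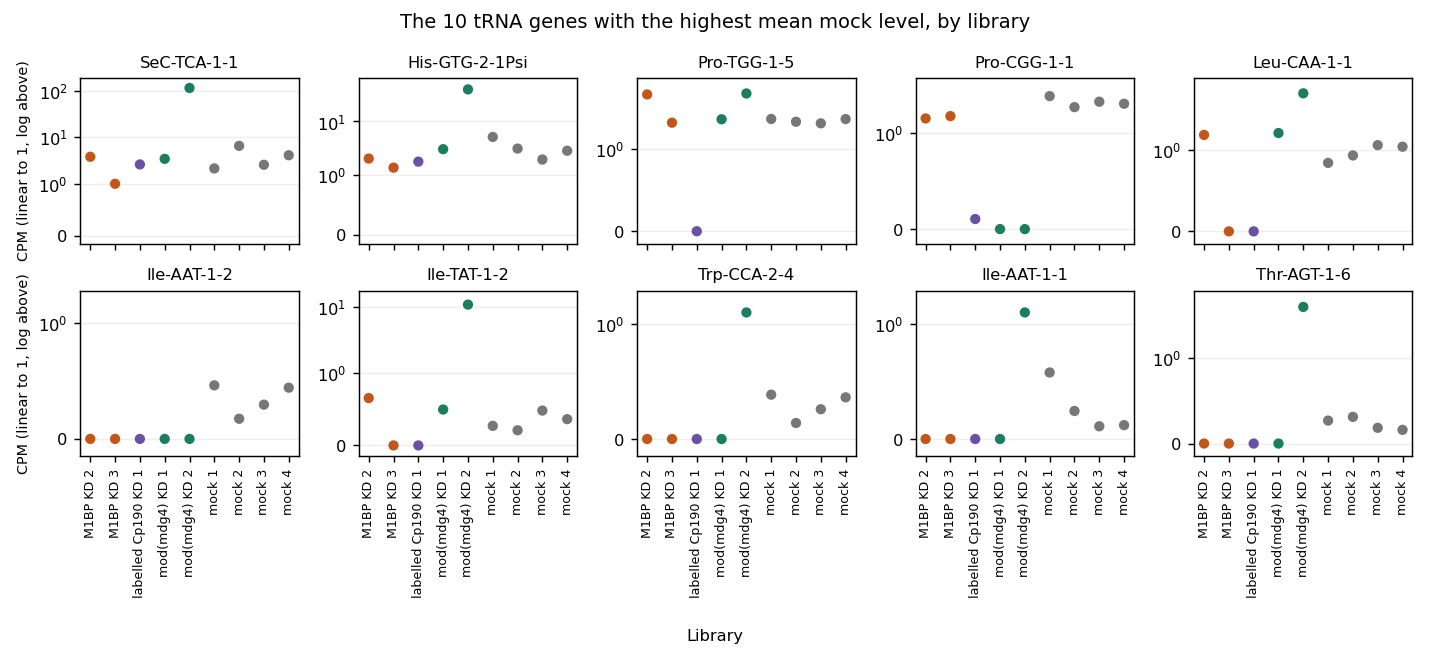
Level in CPM (linear up to 1, logarithmic above) of the 10 tRNA genes with the highest mean mock level, 1 panel per gene and 1 point per library, with knockdown libraries to the left of the 4 mock libraries. The mod(mdg4) knockdown replicate 2 is the highest library in 8 of the 10 panels, and Pro-CGG-1-1 and Ile-AAT-1-2 are at 0 in both mod(mdg4) knockdown libraries.

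The mod(mdg4) knockdown was compared with mock by the positions of its libraries and by edgeR's quasi-likelihood test over all genes. Of the 51 tRNA genes with at least 10 counts, 8 (15.7%) had both mod(mdg4) libraries above all 4 mock libraries, beside 10.2% of all genes with at least 10 counts, and 4 (7.84%) had both below, beside 19.2% of all genes. The 8 were His-GTG-1-2, Ile-TAT-1-1, Ile-TAT-1-2, Leu-CAA-1-1, Leu-CAA-2-2, Pro-CGG-2-3, Ser-AGA-2-1 and Ser-AGA-3-2, and the 4 were Ile-AAT-1-2, Phe-GAA-1-8, Pro-CGG-1-1 and Thr-AGT-1-5. Replicate 2 alone was the highest of all 9 libraries for 33 of the 51 genes (64.7%), beside 14.9% of all genes, and replicate 1 for 2 of the 51, beside 11.7%. A gene could reach 10 counts through the very library that is high, so these counts are partly fixed by the filter. Among genes with at least 10 counts in mock cells alone, replicate 2 was the highest for 15 of 21 tRNA genes (71.4%), beside 15.4% of all genes, and both mod(mdg4) libraries were above all mock libraries for 3 (14.3%), beside 11.3%.

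The expression filter kept 14 of the 295 genes for the test. A gene could pass through high counts in the mod(mdg4) libraries, so the 14 do not stand for all members. Of the 14, 0 were called higher after mod(mdg4) knockdown, beside 0.32% of all 9066 genes tested, and 1 was called lower, beside 0.408%. At an unadjusted p below 0.05, 9 of the 14 were higher, beside 9.82% of all genes, and 2 lower, beside 10.8%. DESeq2 called 11 of 39 tRNA genes higher, beside 3.26% of all genes with an adjusted p. The median log2 fold change was 3.33 over the 14 genes and 0.00 over all genes tested. SeC-TCA-1-1 had a log2 fold change of 3.98 ± 0.99 SE (adjusted p = 0.0901), His-GTG-2-1Psi 2.74 ± 0.78 SE (adjusted p = 0.111) and Ile-TAT-1-2 4.13 ± 0.96 SE (adjusted p = 0.0813). Leaving out 1 of the mod(mdg4) libraries compares the other one with mock, and its spread is assumed to be that of the mock libraries. Without mod(mdg4) replicate 1, 18 of 25 tRNA genes tested were called higher, beside 6.78% of all genes, and without replicate 2, 0 of 14 were, beside 0.232%. Without replicate 2 SeC-TCA-1-1 had a log2 fold change of -0.16 (adjusted p = 0.902).

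The gene called lower was Pro-CGG-1-1 (adjusted p = 0.033 by edgeR). It passed the filter through its mock counts alone, so a call could only be lower. Without any 1 of the 4 mock libraries its adjusted p was 0.0999 to 0.147, so the call needed all 4, although its counts of 0 and 0 did not overlap with the 54 to 69 of mock cells. The next gene on the same strand, CG9570, begins 26123 bases downstream. It was picked out after its values were seen and had 34 and 91 counts after M1BP knockdown, 0 in the library labelled Cp190 knockdown, 2 and 1 after mod(mdg4) knockdown and 195, 224, 149 and 158 in mock cells. In the mod(mdg4) comparison it was called lower (adjusted p = 0.00927), with an adjusted p of 0.063, 0.0608 and 0.0754 without mock replicate 1, 2 or 4. Dop2R, which surrounds Pro-CGG-1-1 on the other strand, was at 0.904 and 2.09 CPM after mod(mdg4) knockdown, against 1.24 to 2.34 CPM in mock cells.

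After M1BP knockdown no tRNA gene had both libraries above all mock libraries (0 of 51, beside 19.8% of all genes), and 12 of 51 (23.5%) had both below, beside 24.4% of all genes. The share below was thus near that of all genes. Pro-CGG-1-1, Ile-AAT-1-1, Ile-AAT-1-2 and Trp-CCA-2-4 were among the 12. Of 7 tRNA genes that passed the filter, 0 were called higher (0 at an unadjusted p below 0.05, and 1 by DESeq2, beside 15.9% of all genes in that fit), beside 16.5% of all 9511 genes tested, and 1 was called lower, beside 11.5%. The median log2 fold change was -0.54 over the 7 genes and -0.03 over all genes tested.

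The gene called lower was Ile-AAT-1-2, 1 of 9 genes with the same mature sequence, so the share of reads lost to its copies is unknown. It passed the filter through its mock counts alone, so a call could only be lower. It had 0 and 0 counts after M1BP knockdown, against 12, 5, 8 and 11 in mock cells (adjusted p = 0.0449 by edgeR). With 3 counts as the floor over both libraries it would be at least 2.6-fold lower, if reads are independent. The call was lost without either M1BP library (adjusted p = 0.101 and 0.095) and without mock replicate 2 or 3 (0.0563 and 0.0671). Pro-CGG-1-1 was at 1.47 and 1.56 CPM, against 1.98 to 2.65 CPM in mock cells, a log2 fold change of -0.54 ± 0.39 SE (adjusted p = 0.33). SeC-TCA-1-1 was at 3.82 and 1.01 CPM, against 2.15 to 6.56 CPM in mock cells (log2 fold change -0.62 ± 0.61 SE, adjusted p = 0.479). Pro-TGG-1-5 was at 5.53 and 2.29 CPM, against 2.25 to 2.57 CPM in mock cells, so its libraries did not agree on a direction. Its log2 fold change of 0.73 (adjusted p = 0.191) became 1.20 (adjusted p = 0.0153) without M1BP replicate 3 and -0.063 (adjusted p = 0.895) without replicate 2. Leu-CAA-1-1, at 1.63 and 0 CPM, against 0.845 to 1.18 CPM in mock cells, split in the same way, with a call (adjusted p = 0.0115) only without M1BP replicate 2.

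In the library labelled Cp190 knockdown, which has no replicate and no test, 5 of the 51 genes (9.8%) were above all mock libraries, beside 33.9% of all genes, and 17 (33.3%) were below, beside 43.7%. The 5 had few or no counts in mock cells and reached 10 counts only with those of this or other knockdown libraries, so that their position is partly fixed by the filter. Among the 21 tRNA genes with at least 10 counts in mock cells, 0 were above all mock libraries, beside 32.6% of all genes. Ser-TGA-2-1 had 43 counts in this library, against 0, 1, 0 and 1 in mock cells. Leu-TAA-4-1 had 36 counts, against 0, 2, 0 and 0 in mock cells. Glu-TTC-1-4 had 36 counts, against 2, 1, 0 and 4 in mock cells, and Gly-GCC-1-1 had 19, against 0 in every mock library. Elsewhere Ser-TGA-2-1 had counts only in mod(mdg4) replicate 2 among the knockdown libraries (3 counts), and Leu-TAA-4-1 only in M1BP replicate 2 (11 counts). The 3 comparisons share the 4 mock libraries, so a mock value that is high or low enters each of them.

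Other short RNAs were measured beside the tRNA genes, since mod(mdg4) replicate 2 was high in several of them too. Over the mean of the mock libraries, mod(mdg4) replicate 2 was at 13.7 times for nuclear tRNA and 12.1 times for snoRNA genes (small nucleolar RNAs, 15 of 256 with counts). It was at 5.66 times for the 7SL genes, 2.81 times for RNase MRP RNA and 1.27 times for 7SK RNA. All genes under 200 bases, which include the tRNA genes, were at 6.7 times. They summed to 2243 CPM there, where snoRNA genes were at 1740 CPM and nuclear tRNA at 248.5 CPM. Replicate 1 was at 0.981, 1.17, 0.705, 0.749, 0.149 and 0.896 times for the same classes. Per 100 snoRNA counts, tRNA counts numbered 14.3 in mod(mdg4) replicate 2 and 10.6 in replicate 1, against 16.0, 13.7, 10.3 and 11.4 in mock cells. Thus the ratio of tRNA to snoRNA counts in replicate 2 lay within the mock range. In M1BP knockdown it was 7.34 and 5.12 and in the library labelled Cp190 knockdown 4.59, below every mock library. The part of short RNA recovery in the tRNA values was not tested.

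**Figure D5:**
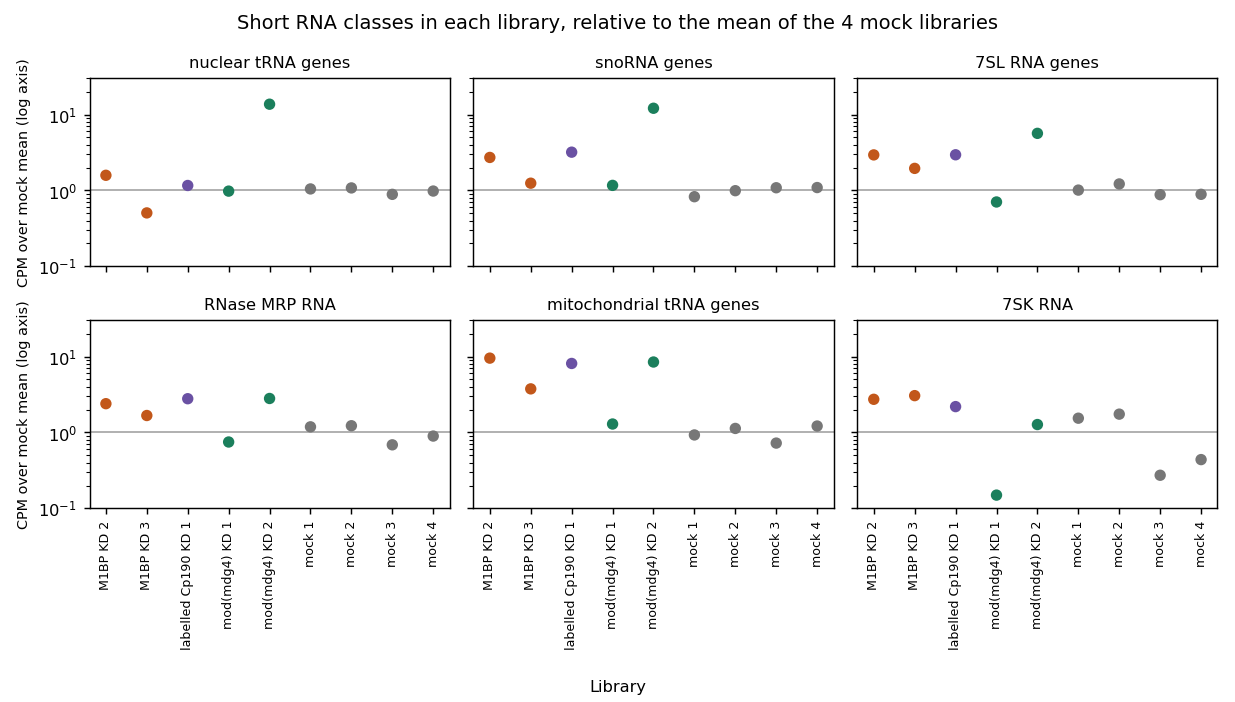
Level of 6 classes of short RNA in each library over the mean of the 4 mock libraries (CPM ratio, log axis), 1 panel per class, with the grey line at 1. In mod(mdg4) knockdown replicate 2 nuclear tRNA stands at 13.7 and snoRNA at 12.1, and in replicate 1 at 0.981 and 1.17, while 7SK RNA differs among the mock libraries themselves, from 0.273 to 1.75.

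Other Pol III transcripts were for the most part not countable. The 7SL genes and RNase MRP RNA, like the tRNA sum, were highest in mod(mdg4) knockdown replicate 2, but after M1BP knockdown they were above all mock libraries. The list of these transcripts holds 104 genes, of which 9 had counts. They are 5S ribosomal RNA genes (3 of 96 with counts) and genes for U6, 7SL, 7SK, RNase MRP and RNase P RNA. The polymerase that makes RNase P RNA in these cells was not examined. 7SL RNA, the scaffold of the signal recognition particle, comes from near-identical genes, so the split of reads between them is uncertain. 7SLRNA:CR32864 rose to 965.3 and 641.4 CPM after M1BP knockdown, against 314.3 to 436.1 CPM in mock cells (log2 fold change 1.22 ± 0.19 SE, adjusted p = 0.00281). 7SLRNA:CR42652 rose to 103.2 and 67.9 CPM, against 4.83 to 6.61 CPM in mock cells (log2 fold change 3.96 ± 0.21 SE, adjusted p = 2.6e-05). RNase MRP RNA, part of a ribosomal RNA processing enzyme, rose to 2974 and 2077 CPM, against 853.1 to 1523 CPM in mock cells (log2 fold change 1.07 ± 0.24 SE, adjusted p = 0.0122), a call lost without M1BP replicate 2 (adjusted p = 0.0832). Hence 3 of 4 tested were called higher after M1BP knockdown, beside 16.5% of all genes, while the tRNA sum in the same libraries lay on both sides of mock. In the mod(mdg4) comparison 1 of 4 was called higher, beside 0.32% of all genes, which was 7SLRNA:CR42652, at 34.0 and 203.4 CPM (log2 fold change 4.43 ± 0.57 SE, adjusted p = 0.0252, and 0.0999 to 0.133 without any 1 mock library).

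Mitochondrial tRNA genes, which the mitochondrial polymerase transcribes from the organelle's own genome, served as a second set of tRNA genes. They summed to 17.0 and 6.69 CPM after M1BP knockdown, 14.5 CPM in the library labelled Cp190 knockdown, 2.30 and 15.1 CPM after mod(mdg4) knockdown and 1.29 to 2.17 CPM in mock cells. All 5 knockdown libraries were above all mock libraries, unlike the nuclear tRNA sum. However, mod(mdg4) replicate 1, at 2.30 CPM, was close to the highest mock library, at 2.17 CPM, and no counting interval is given for these sums. Of 22 genes 3 were tested after M1BP knockdown and 2 were called higher, beside 16.5% of all genes. mt:tRNA:Ala-TGC was at 1.87 and 1.83 CPM, against 0 to 0.174 CPM in mock cells (log2 fold change 4.78 ± 0.85 SE, adjusted p = 0.00487). mt:tRNA:Thr-TGT was at 2.69 and 0.458 CPM, against 0 to 0.147 CPM in mock cells, and its call (adjusted p = 0.015) was lost without M1BP replicate 2 (0.204). After mod(mdg4) knockdown 0 of 4 tested were called (edgeR, with medians at a log2 fold change of 2.46).

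Of 64 tested genes that make and handle tRNA, in 4 lists, 13 (20.3%) were called lower after M1BP knockdown, beside 11.5% of all genes, and 0 higher, beside 16.5%. Of 16 tested subunit genes of Pol III, 0 were called higher and 4 lower, with a median log2 fold change of -0.49. The 4 were Polr3C and Polr3D, which encode Pol III subunits, and Polr2E and Polr2L, whose products are shared with other polymerases. Polr3C fell to 5.53 and 3.21 CPM after M1BP knockdown, against 8.72 to 14.3 CPM in mock cells (log2 fold change -1.37 ± 0.33 SE, adjusted p = 0.0155, and 0.0589 without M1BP replicate 3). The calls of Polr3D (adjusted p = 0.0179) and Polr2E (0.0212) were lost without mock replicate 4 (0.0536 and 0.052), and Polr2E also without M1BP replicate 3 or mock replicate 1 or 2 (0.0517 to 0.0581).

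Of 9 tested Pol III factors and regulators 1 was called lower after M1BP knockdown, beside 11.5% of all genes, and 0 higher, beside 16.5%. The median log2 fold change was -0.02. Bdp1, a subunit of TFIIIB, fell to 76.9 and 80.7 CPM after M1BP knockdown, against 136.0 to 155.8 CPM in mock cells (log2 fold change -0.87 ± 0.13 SE, adjusted p = 0.00217). Brf, another TFIIIB subunit, and Maf1, a repressor of Pol III, were not called (log2 fold changes of -0.21 and 0.08). Thus both Bdp1 values lay below all mock values, while most of its list did not pass the test.

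Of 20 tested genes for tRNA processing, modification and export, 0 were called higher after M1BP knockdown, beside 16.5% of all genes. There were 4 called lower, beside 11.5% (median log2 fold change -0.33). Elp2, a subunit of the Elongator complex that modifies wobble uridines, fell to 9.36 and 10.2 CPM, against 23.0 to 25.7 CPM in mock cells (log2 fold change -1.28 ± 0.18 SE, adjusted p = 0.00163). Pop1, a protein subunit of RNase P and RNase MRP, was at 7.97 and 18.4 CPM, against 41.7, 45.2, 22.9 and 23.4 CPM in mock cells, where the replicates split into pairs. Its call (adjusted p = 0.0445) was lost without M1BP replicate 2 (0.19) or mock replicate 1 or 2 (0.0762 and 0.0778). Tsen34, a catalytic subunit of the tRNA splicing endonuclease, was at 2.52 and 3.48 CPM, against 5.19 to 7.15 CPM in mock cells, and its call (adjusted p = 0.0364) was lost without M1BP replicate 2 or any 1 mock library (0.0572 to 0.102).

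The cytosolic aminoacyl-tRNA synthetases load tRNAs with their amino acid. Of 19 tested, 0 were called higher after M1BP knockdown, beside 16.5% of all genes, and 4 lower, beside 11.5%. Their median log2 fold change was -0.34. ThrRS fell to 183.9 and 162.6 CPM, against 306.0 to 350.6 CPM in mock cells (log2 fold change -0.87 ± 0.13 SE, adjusted p = 0.00236). ValRS was at 153.5 and 172.9 CPM, against 230.6 to 364.9 CPM in mock cells (log2 fold change -0.83 ± 0.19 SE, adjusted p = 0.0125, and 0.0519 without M1BP replicate 2). AsnRS was also called lower (adjusted p = 0.0319), a call lost without either M1BP library or without mock replicate 1, 2 or 4 (0.057 to 0.0793). The lists were written with earlier results of these data known.

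After mod(mdg4) knockdown edgeR called 0 genes of these 4 lists, beside 0.32% of all genes called higher and 0.408% lower. DESeq2 called 6, counted over both directions. It called 3.26% of all genes higher, but the share lower is not given here, so the 6 have no like share beside them. The median log2 fold changes of the lists were 0.36 for Pol III subunits, 0.13 for factors and regulators, 0.15 for processing genes and 0.16 for synthetases. Bdp1 was at 174.1 and 159.0 CPM after mod(mdg4) knockdown, against 136.0 to 155.8 CPM in mock cells (adjusted p = 0.373). Fits with 1 mod(mdg4) library have no spread within that group, so their calls in these lists are not given. In the library labelled Cp190 knockdown, Pol III subunits summed to 419.1 CPM and synthetases to 2077 CPM, against 465.8 to 584.7 and 2722 to 3358 CPM in mock cells. Processing genes summed to 948.7 CPM there, against 1358 to 1610 CPM in mock cells, and factors and regulators to 784.1 CPM, within the 741.9 to 1003 CPM of mock cells.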

How the data were processed

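Strand-specific 50 bp single-end reads of captured EU-labeled RNA were trimmed with cutadapt 2.7 (quality 20, minimum length 25), mapped with HISAT2 2.1.0 to FlyBase dm6 and counted per gene with featureCounts 1.6.4 by the authors, who deposited raw counts without normalization, with positions and lengths. At default settings reads that map to several places or overlap several genes on 1 strand are not counted. Of the columns, 2 were not used, since both carry the header of 1 library with different values, and M1BP knockdown replicate 1 has none. Gene names matched 17650 of 17771 genes. The reference annotation placed 294 of 295 tRNA genes at the same position. Sequences are not given here.

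Counts were scaled by TMM and tested in R 4.3.3 with edgeR 4.0.16 (default filter, quasi-likelihood F test, threshold of 0.05 on p-values adjusted after Benjamini and Hochberg), each knockdown against all 4 mock libraries. Intervals are at 95%, exact binomial for the summed levels, and 3 counts were taken as the floor. Both take reads as independent draws. Alternatives were DESeq2 1.42.0 without a filter, other scalings and filters, all libraries in one model, each pair of mock libraries, the replicate number as a block, and leaving out each library. The crossed block, the sum over genes with at least 10 counts and the counts over genes with 10 mock counts were chosen after seeing the data. The tests were checked on simulated independent counts with a fixed spread, which differ from the low counts of these libraries. Of 4-fold changes 98.0% (M1BP) and 92.9% (mod(mdg4)) were recovered, but of 2-fold changes only 41.8% and 38.4%.

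Named were the 10 tRNA genes highest in mock, every tRNA gene called, at most 3 called members per direction of each list, and the targeted genes. The members and the lists (Pol III subunits, Pol III factors and regulators, tRNA processing, synthetases, other Pol III transcripts, mitochondrial tRNA genes, cell type markers) were chosen with earlier results of these data known. Of the listed genes, Rpp38 and Archease were not matched.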

Additional observations from a re-analysis of the deposited data

Results flagged for a closer look

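Summed Pro tRNA genes stood out in 1 mock library. They were at 5.88 CPM in mock replicate 1 and at 4.76, 4.64 and 4.81 CPM in mock replicates 2 to 4. The gap from replicate 1 to the nearest other library was 0.864 of the whole range of the group, above Dixon's 95% critical value for 4 samples. This was 1 of 21 groups of mock values examined, and chance alone marks about 1 in 20 groups. Pro-CGG-1-1, with 69 counts in replicate 1 and 57, 62 and 54 in replicates 2 to 4, was not marked by itself.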

How the results depend on the processing

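After M1BP knockdown, the 1 tRNA gene called lower became 0 with DESeq2, without a filter, with a minimum of 10 counts per library, in one model of the 9 libraries and against either pair of mock libraries, and 0 to 1 without single libraries. The 0 genes called higher became 1 with DESeq2, 3 without a filter and 0 to 3 without single libraries. After mod(mdg4) knockdown, the 0 genes called higher became 11 with DESeq2 and 0 to 18 without single libraries, and the 1 called lower became 0 with the 10-count filter and either pair of mock libraries, and 0 to 1 without single libraries. The 13 members of the 4 lists called after M1BP knockdown became 8 in one model, 8 and 5 against mock replicates 1 and 2 or 3 and 4, and 7 to 16 without single libraries. The 0 called after mod(mdg4) knockdown became 6 with DESeq2 and 1 with the 10-count filter, and changed with the library left out. The causes were not tested.

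The replicate numbers did not pair the samples (correlation of same-numbered deviations -0.13 for M1BP and -0.06 for mod(mdg4) knockdown, 2 pairs each). With the replicate block, 0 tRNA genes were called lower and 0 higher after M1BP knockdown, with 1 list member, beside 566 of 9173 genes. After mod(mdg4) knockdown the block called 1 tRNA gene higher (SeC-TCA-1-1, log2 fold change 2.69, adjusted p = 0.000893), 0 lower and 3 list members. With the numbers crossed, 0 tRNA genes were called in either comparison, with 9 and 3 list members. After M1BP knockdown the crossed block called 1395 of 9173 genes.

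Summed tRNA moved little with scaling for M1BP knockdown (0.06, and 0.18 or 0.00 otherwise) and mod(mdg4) knockdown (2.88, and 2.93 or 3.09), but without single libraries it was -0.98 to 0.67 and -0.029 to 3.78. For the library labelled Cp190 knockdown the 0.22 became 0.38 with DESeq2 size factors and 0.37 without SeC-TCA-1-1. Scaling by library size alone moved the median of all genes to -0.13 (from -0.03) and 0.12 (from 0.00), and the share of calls that were higher after mod(mdg4) knockdown to 64.6% from 43.9%. At a minimum of 10 counts, 51 tRNA genes were left of 129.

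Single genes whose log2 fold change reversed are given with their values. After M1BP knockdown, leaving out single libraries gave -0.063 to 1.20 for Pro-TGG-1-5, -7.59 to 0.68 for Leu-CAA-1-1 and -5.97 to 0.99 for Ile-TAT-1-2, which was at -0.023 by library size alone. In the mod(mdg4) comparison it gave -0.16 to 4.91 for SeC-TCA-1-1, -0.098 to 3.63 for His-GTG-2-1Psi, -5.78 to 2.18 for Trp-CCA-2-4 and -5.67 to 2.29 for Ile-AAT-1-1, the lowest always without mod(mdg4) replicate 2. Ile-AAT-1-1 also reached -0.19 with the block and -0.31 with the numbers crossed. Only 51 of 295 members had at least 10 counts in all, and the filter kept 7 and 14 for the tests.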

Other observations

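Some tRNA genes were counted in knockdown libraries and not in mock cells. The 24 genes (18.6% of the 129 with counts, beside 4.52% of all genes with counts) held 189 counts in the knockdown libraries. Of the 24, 11 had counts in mod(mdg4) knockdown replicate 2 only, 57 counts in all. Gly-GCC-1-12 had 21 counts in M1BP knockdown replicate 2 and 12 in mod(mdg4) knockdown replicate 2, against 0 in every mock library. iMet-CAT-1-4, 1 of 5 identical genes for the initiator tRNA, had 12 counts in M1BP knockdown replicate 2 and 0 in every other library. Gly-GCC-1-1 had 19 counts in the library labelled Cp190 knockdown and 0 in every other library. These genes were picked out after their values were seen.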
